A study of Mus musculus with 4 samples.

Results

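The genes described are the Toll-like receptors *Tlr1*, *Tlr2*, *Tlr3*, *Tlr4*, *Tlr6*, *Tlr7* and *Tlr9*, the receptor chaperone *Unc93b1*, the TLR4 co-receptor *Ly96* and the adaptor *Myd88*. They are 10 of the 55359 genes in the count table, and they were listed by name, with earlier results of these data known. RNAseq was performed on T8 cells, a pB-ALL line established from a primary tumor of a single Irf4-/- mouse, so all libraries share this genotype and come from 1 line. The cells were transduced with a retrovirus coding for GFP alone (EV-RV, 2 libraries) or for GFP plus IRF4 (IRF4-RV, 2 libraries), and viable cells were collected 24 h later. The design text calls the libraries of a group biological replicates but does not say whether they came from separate cultures, so p-values measure the spread between these libraries, which may be in part technical. The comparison asks which innate receptors changed when IRF4 was put back into leukemic B-cell progenitors that lack it.

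Toll-like receptors recognize microbial products. TLR1, TLR2, TLR4 and TLR6 sit at the cell surface and bind lipopeptides and lipopolysaccharide, and TLR3, TLR7 and TLR9 bind nucleic acids in endosomes, where UNC93B1 has to carry them. With the exception of TLR3, these receptors signal through MyD88 to NF-kB and to interferon regulatory factors, and B cells are known for responding directly to ligands of TLR4, TLR7 and TLR9. IRF4 itself binds MyD88 and competes there with IRF5.

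After IRF4-RV transduction the endosomal receptors *Tlr7* and *Tlr9*, their chaperone *Unc93b1*, the surface receptor *Tlr1* and, by less, the adaptor *Myd88* rose, whereas *Tlr4* fell. *Tlr2* passed the threshold narrowly, *Tlr6* and *Ly96* did not pass, and *Tlr3* was too low to be tested. In all, 9 of the 10 genes were tested with edgeR's quasi-likelihood test after TMM scaling, at an FDR of 0.1 (Benjamini-Hochberg adjustment over all genes tested), of which 6 were higher and 1 was lower with IRF4-RV. Among all 14637 genes tested, 16.0% were called higher, 13.7% lower and 29.7% in either direction. The median log2 fold change of the 9 genes was 0.36, and that of all genes tested was 0.01. The 2 groups did not overlap in 8 of the 9 genes, compared with 61.3% of all genes tested. *Tlr7* passed edgeR's filter on low counts only through the IRF4-RV libraries. Its place among the higher and the non-overlapping genes was therefore fixed by the filter. Scaled by library size alone, 1743 of all genes were higher and 2867 lower, in place of 2340 and 2009, and of the 9 genes 5 were then higher and 1 lower, with *Tlr2* no longer called. In bulk RNA, a larger share of cells expressing a gene and more RNA per cell cannot be told apart.

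**Figure D1:**
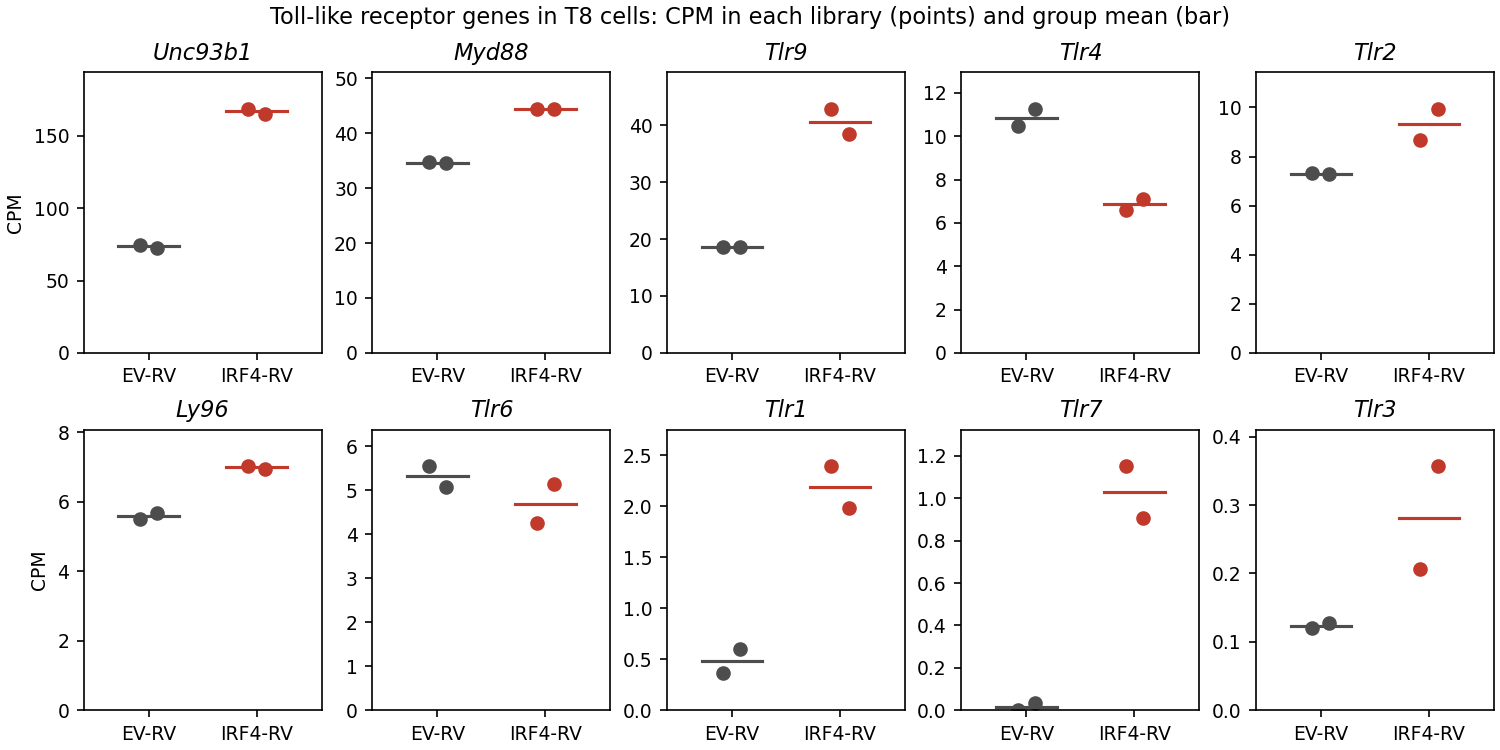
Counts scaled to library size (CPM, linear axes from 0, 1 panel per gene) of the 10 genes in the 2 EV-RV (grey) and 2 IRF4-RV (red) libraries of T8 cells, with bars at the group means. *Unc93b1*, *Myd88*, *Tlr9*, *Tlr2*, *Ly96*, *Tlr1*, *Tlr7* and *Tlr3* were higher in both IRF4-RV libraries, *Tlr4* was lower in both, and *Tlr6* overlapped between the groups.

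IRF proteins bind DNA through GAAA repeats, and NF-kB binds runs of G followed by runs of C, so the start regions of the genes were read for 3 patterns of letters on both strands. RefSeq windows on GRCm38.p6, each from 250 bases before to 50 bases after a start, were matched to 6 of the 10 genes and gave 8 windows, with 2 starts each for *Tlr1* and *Tlr6*. No window was matched to *Tlr4*, *Tlr7*, *Unc93b1* and *Ly96*. An interferon-stimulated response element (ISRE)-like pattern, GAAANNGAAA, was present in 2 of the 8 windows and in 3.44% of 32851 windows of the same length. An ETS-IRF composite pattern, GGAANNGAAA, was present in none of the 8 and in 2.72% of all windows. An NF-kB-like pattern, GGGNNNNNCC, was present in 3 of the 8, those of *Tlr2*, *Tlr3* and the outer start of *Tlr6*, and in 50.8% of all windows. A match describes letters and is no evidence of binding.

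Shown are the bases before a RefSeq start, up to the first base in a GENCODE exon of the gene. They are given for the 2 genes with an ISRE-like match, for *Tlr9* as a called gene without any match, and for *Tlr2*. Capitals mark the matches. The *Myd88* stretch lies at chr9:119340042-119340268 on the minus strand, before a RefSeq start, and its match ends 31 bases before that start. It is inside the span that GENCODE gives *Myd88*, whose 5' end is at 119341411. The *Tlr6* stretch lies at chr5:64959167-64959416 on the minus strand and holds 2 overlapping matches that read on the opposite strand. It is inside the span that GENCODE gives *Tlr6*, whose 5' end is at 64960097, and in none of its exons. The *Tlr9* stretch lies at chr9:106222348-106222597 on the plus strand. The *Tlr2* stretch lies at chr3:83841768-83841858 on the minus strand and holds 3 overlapping NF-kB-like matches, 163 to 173 bases before the RefSeq start. It stops beside the 5' end that GENCODE gives *Tlr2*, at 83841767, so the matches lie closer to that end. Further NF-kB-like matches span the RefSeq start and are not shown.
Myd88: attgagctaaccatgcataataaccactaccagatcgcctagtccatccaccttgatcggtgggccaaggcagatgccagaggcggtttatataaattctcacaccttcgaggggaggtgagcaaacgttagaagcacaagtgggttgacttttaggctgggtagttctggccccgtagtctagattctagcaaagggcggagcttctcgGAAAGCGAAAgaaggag
Tlr6: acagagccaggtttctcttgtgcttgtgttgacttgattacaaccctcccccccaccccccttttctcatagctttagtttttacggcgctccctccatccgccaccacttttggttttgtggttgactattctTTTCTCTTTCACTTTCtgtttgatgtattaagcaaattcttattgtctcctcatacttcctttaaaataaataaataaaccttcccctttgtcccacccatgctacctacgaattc
Tlr9: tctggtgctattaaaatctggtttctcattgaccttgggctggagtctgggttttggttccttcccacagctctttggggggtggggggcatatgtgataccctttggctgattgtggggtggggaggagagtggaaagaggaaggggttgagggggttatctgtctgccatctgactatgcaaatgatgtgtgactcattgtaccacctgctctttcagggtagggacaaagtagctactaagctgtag
Tlr2: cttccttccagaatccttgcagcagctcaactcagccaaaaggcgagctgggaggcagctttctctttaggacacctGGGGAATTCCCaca

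TLR9, the receptor for unmethylated CpG DNA, is encoded by *Tlr9* (ENSMUSG00000045322) on chromosome 9 of GRCm38 from 106222598 to 106226883 on the plus strand. It had 623 and 585 counts under EV-RV against 1452 and 1399 under IRF4-RV. Both IRF4-RV libraries lay above both EV-RV libraries, at 40.6 ± 3.14 CPM against 18.6 ± 0.0836 CPM (SD, n = 2). This was a rise of 1.13 on the log2 scale (standard error 0.0975), with an edgeR adjusted p of 0.000192.

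UNC93B1 is the multi-pass membrane chaperone that the nucleic acid receptors need to leave the endoplasmic reticulum. *Unc93b1* (ENSMUSG00000036908, chromosome 19, 3935186 to 3949340, plus strand) had 2484 and 2293 counts under EV-RV against 5710 and 6018 under IRF4-RV. The level went from 73.6 ± 1.22 CPM to 166.9 ± 2.33 CPM (SD, n = 2), so the replicates lay close together beside the distance between the groups. The log2 fold change of 1.18 (standard error 0.0732, adjusted p = 3.5e-05) was close in size to that of *Tlr9*.

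TLR7, the receptor for single-stranded RNA, was almost undetected with EV-RV. *Tlr7* (ENSMUSG00000044583, chromosome X, 167304929 to 167330558, minus strand) had 0 and 1 counts under EV-RV against 39 and 33 under IRF4-RV. Both EV-RV libraries were below 3 counts, the floor set for detection, and both IRF4-RV libraries were well above it. The ratio of the scaled counts was 66.5, with an exact 95% counting interval from 11.6 to 2662, so its size is poorly known. The fitted log2 fold change of 5.75 (standard error 0.789, adjusted p = 0.00178) rests on the small constant that edgeR adds to such counts, and it went to 4.86 without EV-RV replicate 1 and 8.16 without EV-RV replicate 2, both past the threshold.

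TLR3, the receptor for double-stranded RNA, signals without MyD88. *Tlr3* (ENSMUSG00000031639, chromosome 8, 45395665 to 45411080, minus strand) had 4 and 4 counts under EV-RV against 7 and 13 under IRF4-RV, which did not pass edgeR's filter on low counts. With every gene of at least 1 count tested instead, its log2 fold change was 1.18 (adjusted p = 0.565), and it was not called. The gene overlaps *Gm45542* on the opposite strand, which had 0 counts in every library.

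Of the surface receptors, *Tlr1*, which pairs with TLR2 to bind triacylated lipopeptides, rose most. *Tlr1* (ENSMUSG00000044827, chromosome 5, 64924679 to 64933563, minus strand) had 12 and 19 counts under EV-RV against 81 and 72 under IRF4-RV. The level was 0.481 ± 0.172 CPM against 2.18 ± 0.293 CPM (SD, n = 2), without overlap between the groups, and the log2 fold change was 2.18 (standard error 0.364, adjusted p = 0.0045). Leaving out any library kept it past the threshold, between 1.84 and 2.59.

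TLR6 is the alternative partner of TLR2, for diacylated lipopeptides, and its gene is the neighbor and close relative of *Tlr1*. *Tlr6* (ENSMUSG00000051498, chromosome 5, 64952031 to 64960097, minus strand) had 185 and 160 counts under EV-RV against 144 and 187 under IRF4-RV. Its groups overlapped, with a log2 fold change of -0.18 (standard error 0.171, adjusted p = 0.513). Of the 2976 stretches of 50 bases in the longest *Tlr1* transcript, 454 (15.3%) also occur in that of *Tlr6*, so a part of the reads of either gene could have been assigned to the other or dropped, depending on counting settings that are not given in the sources used here.

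*Tlr2* (ENSMUSG00000027995, chromosome 3, 83836272 to 83841767, minus strand), the shared partner of both, had 244 and 230 counts under EV-RV against 294 and 362 under IRF4-RV. The level was 7.30 ± 0.0129 CPM against 9.31 ± 0.893 CPM (SD, n = 2), so the IRF4-RV libraries were both higher but further apart. The log2 fold change was 0.35 (standard error 0.132), and the adjusted p of 0.0996 was just under the FDR of 0.1. DESeq2 gave an adjusted p of 0.317, and fits that left out 1 library gave 0.117 to 0.423, so the call depended on the analysis.

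*Tlr4*, which encodes the receptor for lipopolysaccharide, was the only gene of the 9 tested that was called lower. *Tlr4* (ENSMUSG00000039005, chromosome 4, 66827584 to 66930284, plus strand) had 349 and 355 counts under EV-RV against 224 and 258 under IRF4-RV. Both IRF4-RV libraries lay below both EV-RV libraries, at 6.85 ± 0.334 CPM against 10.9 ± 0.565 CPM (SD, n = 2). The log2 fold change was -0.66 (standard error 0.125, adjusted p = 0.00758), which leaving out any library kept between -0.73 and -0.61.

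MD-2, the protein of *Ly96*, forms the lipopolysaccharide-binding pocket together with TLR4. *Ly96* (ENSMUSG00000025779, chromosome 1, 16688051 to 16709611, plus strand) had 184 and 179 counts under EV-RV against 238 and 253 under IRF4-RV. At 5.60 ± 0.115 CPM against 6.99 ± 0.0553 CPM (SD, n = 2) the groups did not overlap, but the log2 fold change of 0.32 (standard error 0.137) did not pass, with an adjusted p of 0.142. The receptor gene and its co-receptor gene thus had fitted changes of opposite sign, of which only that of *Tlr4* passed the test.

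*Myd88* encodes the adaptor that couples these receptors and the interleukin-1 receptors to IRAK kinases. *Myd88* (ENSMUSG00000032508, chromosome 9, 119335934 to 119341411, minus strand) had 1158 and 1091 counts under EV-RV against 1505 and 1616 under IRF4-RV. Replicates were nearly equal after scaling, at 34.7 ± 0.0739 CPM against 44.4 ± 0.036 CPM (SD, n = 2). The log2 fold change was 0.36 (standard error 0.0831, adjusted p = 0.0184), and fits that left out 1 library gave adjusted p-values of 0.054 to 0.0992. Of the 2409 stretches of 50 bases in its longest transcript, 175 (7.26%) also occur in *Acaa1a*, which overlaps it on the opposite strand. *Acaa1a* had 724 and 731 counts under EV-RV against 746 and 910 under IRF4-RV (log2 fold change 0.07, adjusted p = 0.699), and without a known strand setting the reads of the overlap cannot be told apart.

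**Figure D2:**
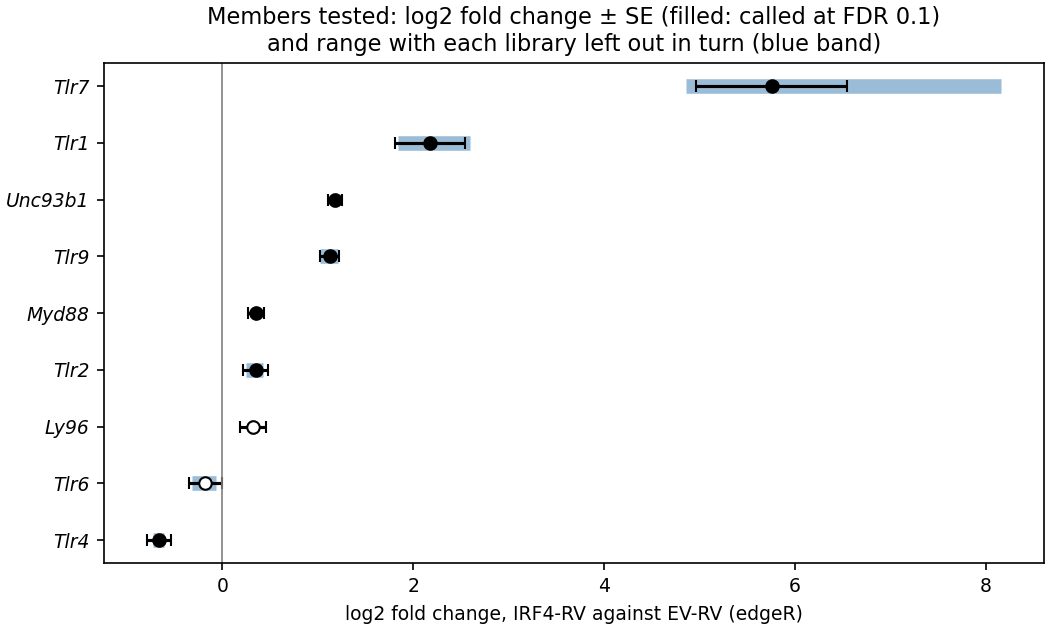
Log2 fold change of IRF4-RV against EV-RV (x axis) for the 9 genes tested, with the standard error as whiskers, filled points for genes called at an FDR of 0.1 and blue bands for the range with each of the 4 libraries left out in turn. *Tlr7* at 5.75 and *Tlr1* at 2.18 lay furthest to the right with the widest bands, *Unc93b1* and *Tlr9* lay near 1.18 and 1.13, and *Tlr4* at -0.66 lay left of 0.

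To compare levels between genes, CPM were divided by the length of all exons of a gene. Per kilobase, *Unc93b1* was the highest of the 10 genes in both groups, with 24.3 CPM per kilobase in EV-RV and 55.1 in IRF4-RV libraries. *Myd88* followed with 13.5 and 17.2. *Tlr9* was the highest receptor in both groups, at 5.35 with EV-RV, where it lay just below *Ly96* at 5.48, and at 11.7 with IRF4-RV, where it lay above *Ly96* at 6.84.

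The surface receptors were lower. *Tlr2* stood at 2.42 CPM per kilobase with EV-RV and 3.09 with IRF4-RV, *Tlr4* at 1.95 and 1.23, and *Tlr6* at 1.42 and 1.26. *Tlr1* stood at 0.144 and 0.653. Even after its rise *Tlr7* was low, at 0.252 with IRF4-RV, and *Tlr3* was the lowest of the IRF4-RV group at 0.0541. In the EV-RV group no neighbors in this order overlapped over the 2 libraries, and in the IRF4-RV group only *Tlr6* and *Tlr4* did. With the longest transcript as the length, *Tlr4* moved above *Tlr2* in the EV-RV group and above *Tlr6* in the IRF4-RV group, and the rest of the order stayed.

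**Figure D3:**
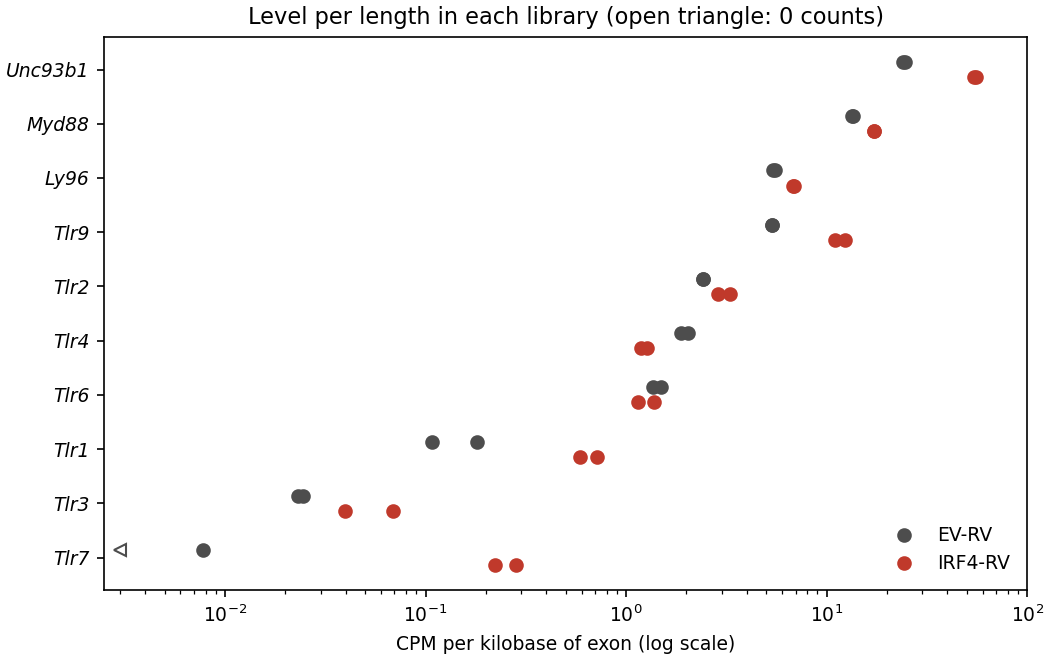
CPM per kilobase of exon (x axis, log scale) in each library for the 10 genes, ordered by the EV-RV mean, with EV-RV in grey and IRF4-RV in red. The open triangle is the EV-RV library with 0 counts of *Tlr7*. *Unc93b1* was highest in both groups at 24.3 and 55.1, and *Tlr7* moved from the bottom to 0.252.

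For each gene called with a change of at least 1 on the log2 scale, the 3 genes tested with the nearest pattern over the 4 libraries were found by the Euclidean distance of centered log2 CPM. This is a description over 4 libraries that mostly follow the group difference. Nearest to *Tlr7* were *Mx1* (distance 0.223), an interferon-induced antiviral GTPase, *Kmo* (0.333), an enzyme of tryptophan breakdown, and *Nucb2* (0.340). *Mx1* was counted so sparsely with EV-RV, at 0 and 0.0317 CPM, that this likeness rests on the same near absence as in *Tlr7*. The 3 nearest to *Tlr9* were the transcription factor gene *Foxo1* (0.0328), *Tnfsf10*, which encodes the death ligand TRAIL (0.0464), and *Hspa2* (0.0480). *Tnfsf10* (0.0652) was also among the nearest to *Unc93b1*, with *H2-T-ps* (0.0485), a pseudogene whose count is uncertain, and *Mgarp* (0.0664). *Tlr1* was nearest to *BC043934* (0.106), *Trim7* (0.134) and *Iglc3* (0.154), all below 3 CPM in every library.

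The remaining mouse Toll-like receptors were barely counted. *Tlr12*, an endosomal receptor for profilin of apicomplexan parasites, had 1 and 0 counts under EV-RV against 18 and 20 under IRF4-RV. Their ratio was 35.1, with an exact 95% counting interval from 5.93 to 1422, and the fitted log2 fold change was 4.83 (adjusted p = 0.00646), with 7.20 without EV-RV replicate 1 and 4.02 without EV-RV replicate 2. Like *Tlr7*, *Tlr12* passed the filter on low counts only through the IRF4-RV libraries, so it could only be called higher. *Tlr5*, the flagellin receptor, had 2 and 11 counts under EV-RV against 1 and 7 under IRF4-RV. *Tlr8* had 1 count in 1 IRF4-RV library, and *Tlr11* and *Tlr13* had 0 counts in all 4 libraries, which at these depths allows a level of up to 0.0952 CPM.

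Genes of the proteins that fold, carry and cut the receptors came next. Of 19 such genes 15 were tested and 8 were called, all higher, beside 16.0% of all genes tested. The median log2 fold change of the list was 0.37. *Cnpy3*, which encodes the chaperone PRAT4A, had 1197 and 1048 counts under EV-RV against 2039 and 2177 under IRF4-RV, a log2 fold change of 0.80 (adjusted p = 0.000561). Of 5 genes of endosomal proteases, 3 were called higher, with log2 fold changes of 0.71 for *Lgmn* (adjusted p = 0.000791), which encodes asparagine endopeptidase, 0.62 for *Ctsb* (adjusted p = 0.00069) and 0.53 for *Ctss* (adjusted p = 0.00343). *Ctsl* was not called, with 16 and 34 counts under EV-RV and 10 and 92 under IRF4-RV (adjusted p = 0.512), and *Ctsk* was too low to be tested. *Ly86*, encoding the MD-1 partner of the TLR4 relative RP105, had a log2 fold change of 0.72 (adjusted p = 0.00145), whereas *Cd180*, encoding RP105 itself, had one of -0.03 (adjusted p = 0.849). *Cd14*, the lipopolysaccharide co-receptor, had 0 and 5 counts under EV-RV against 4 and 9 under IRF4-RV and was not tested.

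Among the other adaptors, 3 of the 4 genes tested were higher, beside 16.0% of all genes tested, with a list median of 0.54. *Pik3ap1*, which encodes BCAP, an adaptor linking receptors of B cells to PI3K, had 2912 and 2493 counts under EV-RV against 6295 and 6091 under IRF4-RV. Its log2 fold change was 1.09 (adjusted p = 0.000148). *Tirap*, which brings MyD88 to TLR2 and TLR4, and *Ticam1*, which encodes the adaptor TRIF of TLR3 and TLR4, had log2 fold changes of 0.55 (adjusted p = 0.00793) and 0.54 (adjusted p = 0.00644). *Ticam2*, the bridge from TLR4 to TRIF, had 42 and 23 counts under EV-RV against 27 and 11 under IRF4-RV, with overlapping groups and an adjusted p of 0.307.

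The interleukin-1 receptor family shares MyD88. Of its 8 genes 4 were tested, with a median log2 fold change of -0.17. Only *Il1r2*, the decoy receptor for interleukin-1, was called, beside 29.7% of all genes tested in either direction. Its log2 fold change was -0.50, with an adjusted p of 0.0569. It had 222 and 252 counts under EV-RV against 183 and 181 under IRF4-RV. The call was lost with DESeq2 (adjusted p = 0.173) and without IRF4-RV replicate 2 (adjusted p = 0.15) or EV-RV replicate 2 (adjusted p = 0.243).

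Downstream of MyD88 are the kinases and ubiquitin enzymes of the Myddosome. Of 21 such genes 18 were tested and 4 were called, all higher, with a median log2 fold change of 0.15. Among all genes tested 16.0% were called higher and 29.7% in either direction. *Tifa*, which encodes a TRAF6-binding protein, stood apart with 813 and 727 counts in EV-RV and 4694 and 4677 counts in IRF4-RV libraries, a log2 fold change of 2.49 (adjusted p = 2.66e-06). *Irak2* had 72 and 84 counts under EV-RV against 218 and 240 under IRF4-RV, with a log2 fold change of 1.43 (adjusted p = 0.00126), whereas *Irak1* had one of -0.05 (adjusted p = 0.714). *Rnf31*, the catalytic subunit of the linear ubiquitin ligase, rose by 0.48 (adjusted p = 0.00742). Its exons overlap those of *Irf9* on the same strand, and the reads of this overlap cannot be told apart. *Irak4* passed narrowly, with a log2 fold change of 0.27 and an adjusted p of 0.099, and did not pass in any fit that left out a library.

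In the TRIF branch, which leads from TLR3 and TLR4 to interferon, 9 genes were tested, with a median of 0.08. Among them 2 were higher, beside 16.0% of all genes tested. The 2 were *Tank* (log2 fold change 0.45, adjusted p = 0.0174) and *Tradd* (0.37, adjusted p = 0.0159). The kinase gene *Tbk1* was not called (0.08, adjusted p = 0.57), nor was *Irf3* (-0.10, adjusted p = 0.49).

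Of 20 inhibitors of the pathway 17 were tested, 8 were higher and 1 was lower, beside 16.0% and 13.7% of all genes tested. The median log2 fold change of the list was 0.25. *Trim30a*, an interferon-inducible gene with close paralogs that encodes an inhibitor of TAK1-binding proteins, had 1596 and 1509 counts under EV-RV against 9775 and 10872 under IRF4-RV, a log2 fold change of 2.62 (adjusted p = 1.38e-06). *Atf3*, a repressor of cytokine genes, had 99 and 88 counts under EV-RV against 741 and 929 under IRF4-RV, a log2 fold change of 3.04 (adjusted p = 8.12e-06). *Trafd1*, a feedback inhibitor, had a log2 fold change of 1.76 (adjusted p = 1.35e-05) and *Tnfaip3*, encoding the deubiquitinase A20, had one of 1.14 (adjusted p = 0.00528). *Cactin* was lower by a log2 fold change of -0.33 (adjusted p = 0.0406), a call that was lost without IRF4-RV replicate 2 (adjusted p = 0.285) or EV-RV replicate 1 (adjusted p = 0.143).

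All 13 transcription factors of the pathway were tested, 9 were higher and 1 was lower, beside 16.0% and 13.7% of all genes tested. The median log2 fold change of the list was 0.37. *Irf7*, the factor downstream of TLR7 and TLR9 in interferon production, had 273 and 230 counts under EV-RV against 915 and 1168 under IRF4-RV, with a log2 fold change of 1.93 (adjusted p = 4.53e-05). *Irf1* followed with 1.38 (adjusted p = 5.51e-05), and *Nfkbiz*, an atypical nuclear inhibitor protein induced by these receptors, had 2.07 (adjusted p = 0.000871). *Irf5*, the factor that competes with IRF4 for MyD88, had a smaller change of 0.27 (adjusted p = 0.055). *Irf8*, a factor of B cells and myeloid cells, was lower, with a log2 fold change of -0.32 (adjusted p = 0.0152), and did not pass without IRF4-RV replicate 2 (adjusted p = 0.134). *Jun* had 35 and 33 counts under EV-RV against 54 and 165 under IRF4-RV, and its log2 fold change of 1.55 (adjusted p = 0.0512) became 0.61 (adjusted p = 0.399) without IRF4-RV replicate 2. Without either EV-RV library *Jun* did not pass (adjusted p = 0.139 and 0.136).

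Of 27 genes that Toll-like receptor signaling is known to induce, 16 were too low to be tested. Among them were *Il6*, with 2 and 0 counts in EV-RV and 5 and 14 counts in IRF4-RV libraries, and *Cxcl10*, with 0 and 0 against 7 and 12. Of the 11 tested, 8 were called, all higher, beside 16.0% of all genes tested. The list median of 1.33 was the value of *Cd80*, which was not called. *Lcn2*, *Ccl4* and *Nos2* passed the filter on low counts only through the IRF4-RV libraries, so they could only be called higher. *Ccl2* would not have passed it on its EV-RV libraries alone, so its test also rested on the IRF4-RV libraries. The direction of these calls and the list median therefore depend in part on the filter. *Lcn2*, encoding a siderophore-binding protein, had 1 and 5 counts under EV-RV against 39 and 75 under IRF4-RV, with a log2 fold change of 4.06 (adjusted p = 0.00396) that stayed past the threshold, at 3.30 without EV-RV replicate 1 and 5.59 without EV-RV replicate 2. *Ccl4* had 0 and 1 counts under EV-RV against 12 and 13 under IRF4-RV (ratio 23.1, exact 95% counting interval 3.78 to 948), and its call was lost without EV-RV replicate 1 (adjusted p = 0.148). *Nos2*, encoding inducible nitric oxide synthase, had 1 and 3 against 14 and 24, and did not pass without EV-RV replicate 1 (adjusted p = 0.157) or IRF4-RV replicate 2 (adjusted p = 0.117). *Ccl2* had 10 and 3 counts under EV-RV against 12 and 136 under IRF4-RV. Its log2 fold change of 3.34 (adjusted p = 0.0582) became 0.82 (adjusted p = 0.657) without IRF4-RV replicate 2, and it did not pass without EV-RV replicate 2 either (adjusted p = 0.195). Without IRF4-RV replicate 2 the count of output genes called went from 8 to 4.

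**Figure D4:**
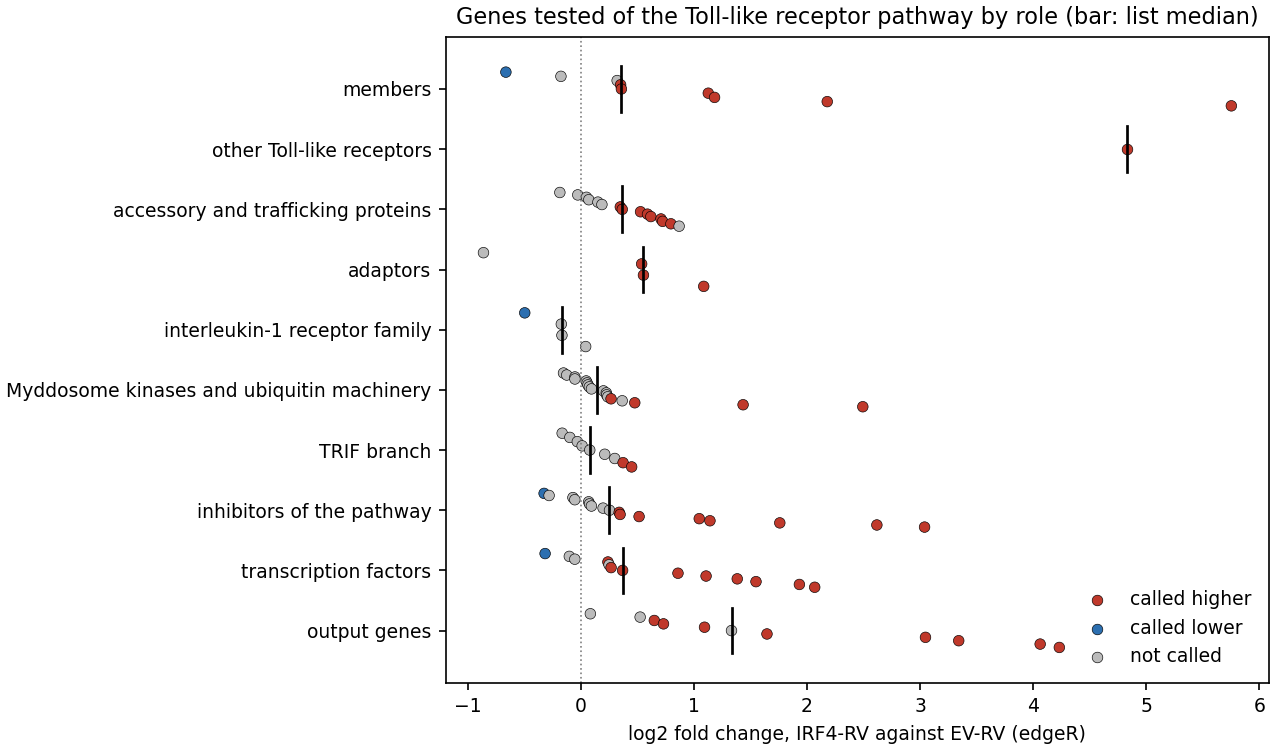
Log2 fold change of IRF4-RV against EV-RV (x axis) for each gene tested, in rows by role, with red points for genes called higher, blue for genes called lower, grey for genes not called, and black bars at the medians. The output genes had the highest median of the lists with more than 1 gene tested, at 1.33, and the interleukin-1 receptor family had the only median below 0, at -0.17. Of the output genes, *Lcn2*, *Ccl4* and *Nos2* passed the filter on low counts only through the IRF4-RV libraries. *Ccl2* would not have passed it on the EV-RV libraries alone.

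The gene lists differ in size and share libraries with the 10 genes, so their shares are to be read beside the 16.0% and 13.7% of all genes. The re-expressed gene *Irf4* had 8070 and 7600 counts under EV-RV against 95578 and 90693 under IRF4-RV (log2 fold change 3.46, adjusted p = 1.14e-06), which follows the vector labels. These counts do not separate vector from locus, and they do not show which exons gave the reads assigned to *Irf4* in EV-RV libraries of a line labelled Irf4-/-. Total counts were between 31230223 and 37817752 per library, and 3 counts were worth between 0.0824 and 0.0952 CPM, limits that cover counting error only. The spread between replicates exceeded counting noise, at a chi-square over its degrees of freedom of 14.1 for EV-RV and 13.1 for IRF4-RV, so none were merged.

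Markers of B-cell progenitors summed to between 3178 and 4595 CPM per library, with *Cd79a* and *Cd79b* not called and *Vpreb1*, *Vpreb2*, *Igll1*, *Dntt* and *Il7r* lower and *Blnk* and *Ptprc* higher with IRF4-RV, although *Rag1* and *Rag2* had at most 1 count in each library. Summed markers of cells that are known for high levels of Toll-like receptors were low. Of the 14 macrophage markers 11 had at most 3 counts in every library, *Adgre1*, *Mertk*, *Cx3cr1* and *Marco* had 0, and *Lyz2* had at most 1. The sum of that list nevertheless went from 1.53 and 1.49 CPM with EV-RV to 8.59 and 7.55 with IRF4-RV, which *Mrc1* carried with 24 and 23 counts against 260 and 230. The sum of 10 neutrophil granule markers went from 0.180 and 0.159 to 2.18 and 1.76 CPM, carried by *Ly6g* with 1 and 0 counts against 71 and 58, while *S100a8*, *S100a9*, *Camp*, *Ngp* and *Ctsg* had 0. The 8 dendritic markers summed to between 0.888 and 1.46 CPM, with *Itgax* and *Siglech* at 0, and the 8 T and NK markers to between 1.24 and 1.79 CPM.

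The line had been started on ST2 stromal cells and later grew without them. Stromal markers set IRF4-RV replicate 2 apart, at 221.2 CPM in sum against 47.5 and 89.4 with EV-RV and 47.0 in IRF4-RV replicate 1. The 6 stromal genes tested had adjusted p-values of at least 0.222, *Col1a1*, *Col1a2*, *Col3a1* and *Cxcl12* held most of these counts, and *Lum* and *Dcn* were at or near 0. Among other genes, *Ccl2*, *Jun*, *Ctsl*, *Lcn2*, *Nos2* and *Il6* were highest in the same library, as were *Tlr2* and *Tlr3* of the 10 genes. *Tlr2* had 8.68 and 9.94 CPM with IRF4-RV, and its log2 fold change of 0.35 was 0.25 with IRF4-RV replicate 2 left out. The part of stromal RNA in the values of these genes was not tested. Without that library, 5 of the 10 genes were higher and 1 was lower, and the log2 fold changes of *Unc93b1*, *Tlr9*, *Tlr1* and *Tlr4* stayed past the threshold with adjusted p-values of at most 0.00223.

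**Figure D5:**
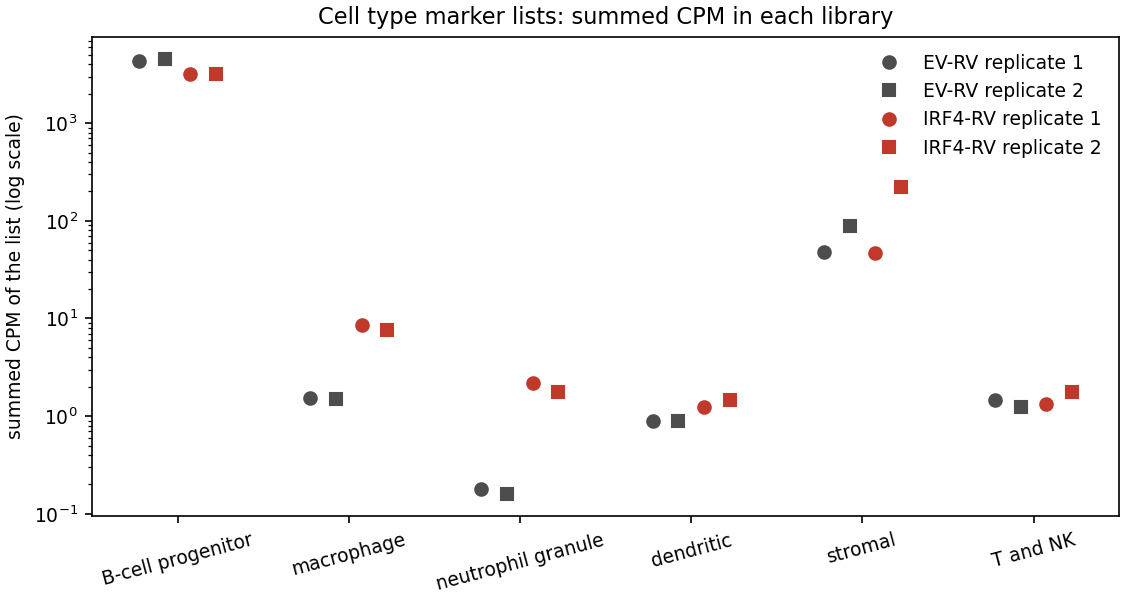
Summed CPM (y axis, log scale) of each list of cell type markers in the 4 libraries, with EV-RV in grey, IRF4-RV in red, circles for replicate 1 and squares for replicate 2. B-cell progenitor markers summed to at least 3178 CPM in each library, and the stromal sum of IRF4-RV replicate 2 stood apart at 221.2 CPM.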

How the data were processed

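RNAseq libraries of T8 cells, EV-RV (n = 2) and IRF4-RV (n = 2), were grouped by their titles. The titles and tissue give T8, whereas the labels' protocols speak of T11 cells. The authors aligned reads to GRCm38 with STAR (2.4.0j), counted them per gene with featureCounts and deposited raw counts for 55359 genes. Of these, 52083 were matched to GENCODE M21. Strand and multi-mapping settings are not given in the sources used here, which makes overlapping and similar genes uncertain.

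Genes passing filterByExpr were tested in R 4.3.3 with edgeR 4.0.16 (TMM factors, quasi-likelihood test, Benjamini-Hochberg adjustment over all 14637 genes tested, FDR 0.1), without a replicate block. CPM are counts scaled to the TMM-corrected library size. The procedure was tested on simulated data. Alternatives were DESeq2 1.42.0, other scalings, an FDR of 0.05, blocking on replicate number, other count filters, leaving out each library, transcript length and a shorter motif core.

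The 10 genes and all lists were chosen with earlier results of these data known. Named are these genes, the other Toll-like receptors, *Irf4* and, per list, at most 4 called genes in each direction with the largest change and groups that did not overlap. Genes named beyond this rule were chosen after their values were seen. Some items of the lists are not reported by name here.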

Additional observations from a re-analysis of the deposited data

How the results depend on the processing

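In the 10 genes no log2 fold change turned its sign under any alternative run, and the count called, 7 in the reported analysis, lay between 5 and 7. The exception among their calls was *Tlr2*, whose log2 fold change of 0.35 did not pass in 9 of 10 alternatives. It was 0.35 with DESeq2 (adjusted p = 0.317), 0.34 with DESeq2's size factors in edgeR, 0.26 with library size only, 0.35 with every gene of at least 1 count, 0.34 with a CPM of at least 1 in 2 libraries, and 0.25 to 0.42 with each library left out. *Tlr7* had no value at a CPM of at least 1. The list of the interleukin-1 receptor family, with 1 gene called, had 0 with DESeq2 and at an FDR of 0.05, 2 with library size only and with every gene of at least 1 count, and 0 to 2 with each library left out. With a CPM of at least 1, the other Toll-like receptors went from 1 gene called to 0 and the output genes from 8 to 5, since fewer low genes were tested, and the output genes had 4 to 9 with each library left out. With the replicate block, 7 of the 10 genes, 2 of the interleukin-1 receptor family, 8 in place of 4 Myddosome genes and 6394 in place of 4349 of all genes were called. The labels do not say that a replicate number marks a shared batch, and with 2 pairs the correlation of same-numbered deviations (r = 0.26 over 14637 genes) does not settle it. In total, 109 of 121 counts of calls stayed within 1.5 times, and 350 of 382 log2 fold changes of named genes kept sign and side of the threshold. The other 32 kept the sign alone. For all genes, 3347 passed at an FDR of 0.05 and 3573 to 3646 with a library left out. The causes were not tested. At these depths *Tlr3*, with 4 to 13 counts per library, was below the filter on low counts.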
